A study of Mus musculus with 28 samples.

Results

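Protein phosphatases and the MAP kinase cascade were followed at the RNA level in mouse dendritic cells stimulated with lipopolysaccharide (LPS). Members were the rows of the RNA table in which any name began with the symbol of a serine/threonine phosphatase subunit (Ppp1 to Ppp6, Ppm1), a tyrosine or dual-specificity phosphatase (Ptpn, Ptpr, Ptp4, Dusp) or a kinase of the cascade (Mapk, Map2k, Map3k, Map4k, Mapkapk). This gave 51 of 3147 genes, of which 40 were phosphatases and 11 were kinases. All 51 passed the filter on low values, and 4 of them shared their row with a second name.

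The cells were grown with GM-CSF from bone marrow of female C57BL/6J mice. They received LPS at 100 ng per ml or a mock stimulus without LPS, and in both arms the labelled medium was exchanged for another at 0 h. Libraries of polyadenylated RNA were made at 0 h and, in either arm, after 1, 2, 4, 6, 9 or 12 h, which gave 13 groups of 2 libraries (26 in all), and 2 further libraries held ribosome footprints of resting cells. Values are TPM, transcript levels corrected for length that sum to 1000000 in each library, so a level is relative to the other listed genes and the depth per library is unknown. Whether replicates were separate cultures is not stated in the labels, and p-values then speak only for the spread between libraries, which may be technical.

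A MAP kinase cascade passes a signal along a chain of kinases. A MAP2K phosphorylates a MAPK on a threonine and a tyrosine, and the MAPK then acts on transcription factors and on MAPKAP kinases such as the product of Mapkapk2, which stabilises cytokine mRNAs. In dendritic cells LPS binds Tlr4 and activates the ERK, JNK and p38 branches within minutes. Phosphatases reverse these steps, and most serine/threonine phosphatases are complexes in which a few catalytic subunits are directed to their targets by many regulatory subunits.

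Related genes differed in their response in several cases, and the regulatory subunits Ppp2r5a and Ppp2r5d moved in opposite directions. RNA of the regulatory subunits Ppp2r5a and Ppp4r2, of the ERK kinase Map2k1 and, early, of Ptpn23 was higher in LPS cells. RNA of Ptpn7, Dusp3, Ppp1cc, Ppp2r5d, Mapk14 and Mapk3 was lower. In the joint F test of LPS minus mock over the 6 times (limma on log2 of TPM plus 1, Benjamini-Hochberg adjusted over 3147 genes, threshold 0.05), 23 of 40 phosphatases and 5 of 11 kinases passed, against 57.2% of all genes. With median-ratio and with quantile scaling 22 phosphatases and 7 kinases passed, against 45.4% and 47.1% of all genes. The phosphatase share was near the background on the deposited scale, and these counts are read as no result about the members. In bulk RNA, fewer cells of a type and less RNA per cell cannot be told apart.

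Among the phosphatases, 3 were higher and 0 lower at 1 h, against 3.27% and 0.794% of all genes. At 2 h 4 were higher and 4 lower (6.39% and 8.04% of all genes), and at 4 h 2 and 12 (8.74% and 29.2%). At 6 h 5 were higher and 10 lower (11.2% and 30.0%). The counts were 4 and 11 at 9 h (10.1% and 30.0%) and 5 and 9 at 12 h (10.0% and 26.8%). The kinases gave 0 calls at 1 h and 1 higher at 2 h. They then gave 0 higher and 3 lower at 4 h, 1 and 4 at 6 h, and 1 and 2 in each of the last times. Calls on phosphatases were thus rises at 1 h and mostly falls from 4 h on, as in the table as a whole.

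These counts also depend on the replicate number. Log2 differences between replicates 2 and 1 correlated across genes between LPS and mock libraries of the same time, at all 6 times (r of 0.227 to 0.685), although the labels do not say what a number stands for. With the number as a block, 8 phosphatases were higher and 1 lower at 1 h (11.2% and 6.10% of all genes), and 8 and 10 at 2 h (11.0% and 16.7%). The blocked counts were 4 and 16 at 4 h (12.1% and 44.9%), 7 and 17 at 6 h (14.8% and 42.9%), 5 and 14 at 9 h (13.6% and 43.3%) and 9 and 15 at 12 h (14.1% and 39.1%). Kinases gave 2 and 6 at 4 h with the block. The F test then passed for 32 phosphatases and 8 kinases, against 80.5% of all genes. No call of a member at a single time was lost with the block. Without the block, 17 phosphatases and 5 kinases were called at no time, and with it 5 and 0, so members described below as called at no time are not shown to be unchanged.

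The direction of these counts depends on the scale. TPM have a fixed total, and the median log2 difference of all genes was -0.05, -0.16, -0.46, -0.44, -0.44 and -0.39 at the 6 times in order. The phosphatases had medians of 0.13, 0.05, -0.39, -0.26, -0.15 and -0.29, and the kinases of 0.05, -0.24, -0.69, -0.19, -0.23 and -0.06. After rescaling each library by its median ratio to a reference, which brought the median of all genes to between -0.03 and -0.01, the split for phosphatases was 12 higher and 6 lower at 6 h and 10 and 5 at 9 h. Of all genes 18.0% were then higher and 14.7% lower at 6 h, and 16.2% and 12.8% at 9 h, so the lower phosphatases were at the background. For kinases the split was 4 and 3 at 6 h. Over the 6 times, all 23 rises of phosphatases and 23 of their 46 falls were still called after rescaling, as were all 4 rises and 6 of 11 falls of kinases, with 0 changes of sign. For that reason falls are given below with their rescaled values.

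Each call at a single time rests on 2 libraries against 2. Without 1 of those 4 libraries, 31 of the 69 calls on phosphatases and 7 of the 15 on kinases did not pass, against 47.8% of the calls on all genes. Calls that passed without each of the 4 libraries and under both other scalings (median ratio and quantile) numbered 13 rises of 5 phosphatases, 19 falls of 8 phosphatases, 2 rises of 1 kinase and 5 falls of 3 kinases. They are called firm below, and this rule was applied to fits without the replicate block. Mapkapk2 and Ppp1cb, for example, had no firm call but were called at several times with the block. Of all genes 9.66% had a firm rise and 19.3% a firm fall at 1 or more times, so the 8 phosphatases with a firm fall were near the background.

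**Figure D1:**
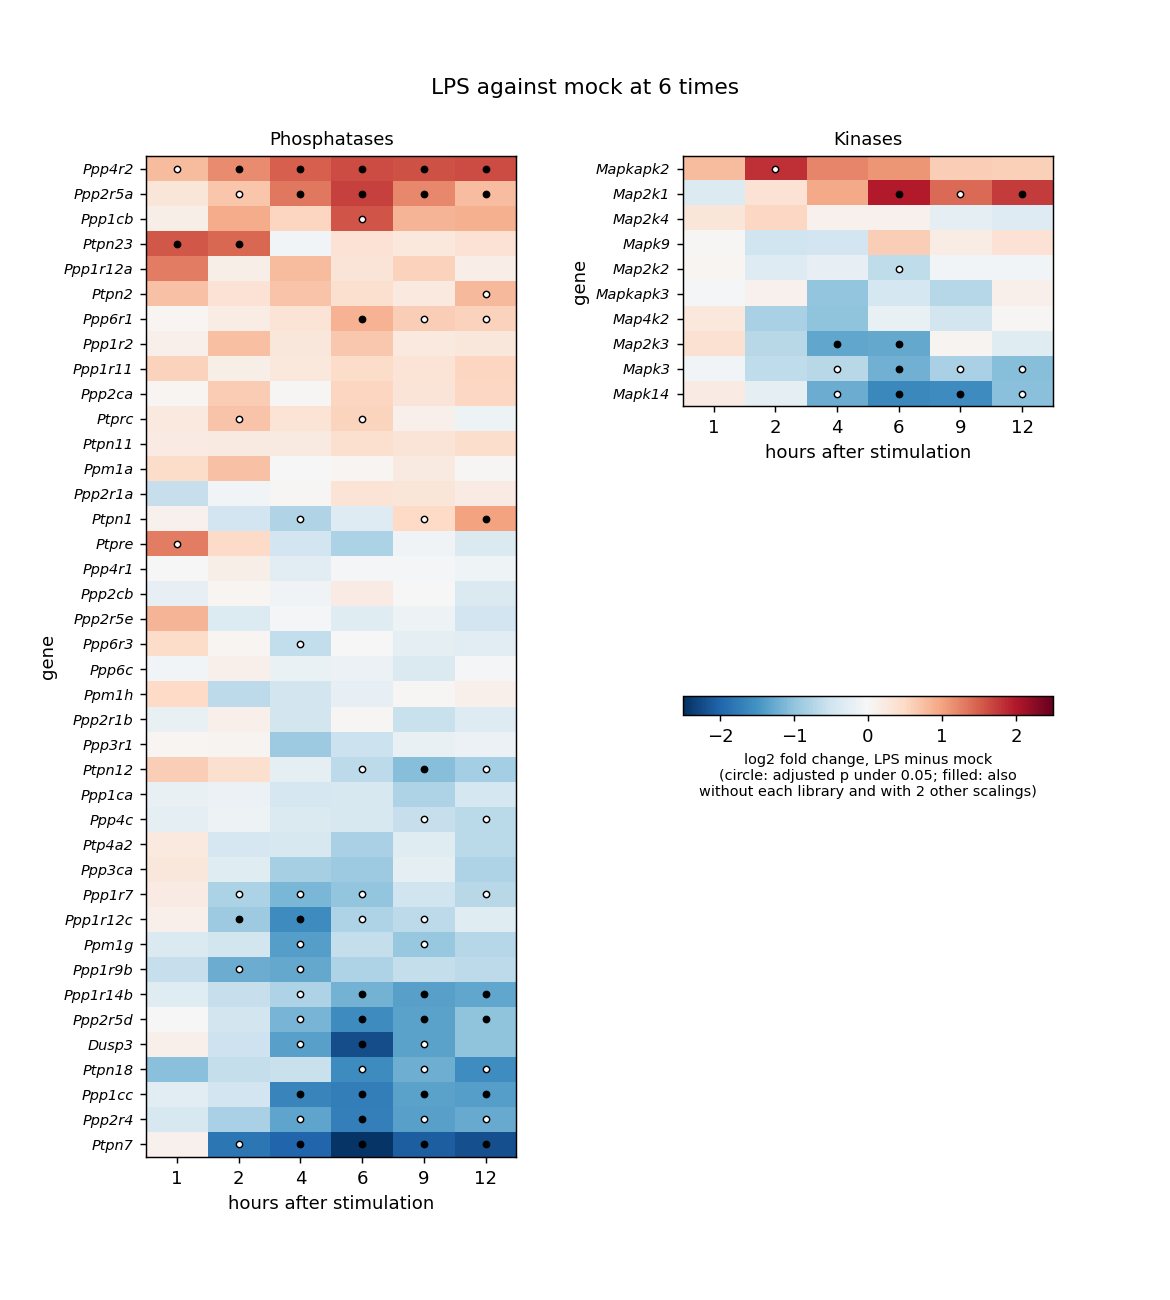
Log2 fold changes of LPS minus mock for phosphatases (left) and kinases (right) at 6 times, in hours. Colour runs from blue (lower with LPS) to red (higher), circles mark adjusted p under 0.05, and filled circles mark the firm calls, which lie from 2 h to 12 h except for Ptpn23 at 1 h.

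Map2k1 encodes a kinase that activates ERK, and it had the largest rise of the 51 genes. It stood at 237 and 201 TPM in the 2 LPS libraries of 6 h against 69.1 and 42.7 TPM in the mock libraries, and at 102 and 52.5 TPM at 0 h. Both LPS libraries lay above every mock library of that time. The log2 fold change was 1.98 ± 0.41 (SE, adjusted p = 0.001) at 6 h and 1.75 ± 0.41 (adjusted p = 0.003) at 12 h, both firm. At 1, 2 and 4 h the log2 differences were -0.35, 0.37 and 0.94 and did not pass, although the 4 h value passed on rescaling (1.39) and with the replicate block (adjusted p = 0.0021). The 9 h call (1.41, adjusted p = 0.012) did not pass without LPS replicate 1 of 9 h (0.84, adjusted p = 0.16) or mock replicate 2 (1.23, adjusted p = 0.082).

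Map2k2, the close relative of Map2k1 that also activates ERK, did not follow it. Its LPS libraries of 6 h held 70.0 and 59.9 TPM and its mock libraries 99.3 and 103 TPM. The LPS libraries were the lower ones, but the gene did not pass the F test over the 6 times (adjusted p = 0.24), and the 6 h difference of -0.63 became -0.21 (adjusted p = 0.54) on rescaling. The ratio of Map2k1 to Map2k2 within a library is nearly independent of a single factor per library, as in median-ratio scaling, but not of quantile scaling. At 6 h its log2 was 1.75 and 1.73 with LPS against -0.52 and -1.24 in mock cells, a difference of 2.62 between the means.

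Map2k3 encodes a kinase of the p38 branch and fell for a limited time. At 4 h the LPS libraries held 68.0 and 61.4 TPM and the mock libraries 166 and 152 TPM. The groups were far apart, and the log2 fold change was -1.29 ± 0.23 (adjusted p = 0.00032), or -0.84 on rescaling. At 6 h it was -1.27 (adjusted p = 0.00031, -0.85 on rescaling), also firm, while at 9 h the LPS libraries (102 and 170.0 TPM) lay around the mock libraries (126 and 125 TPM), with a difference of 0.06. Map2k4, which serves the JNK and p38 branches, had its largest difference at 2 h (0.52 ± 0.21, adjusted p = 0.11), which passed on rescaling (0.67, adjusted p = 0.031) and with the block (adjusted p = 0.042).

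Among the MAP kinases, Mapk14 and Mapk3 fell. Mapk14 encodes a p38 kinase. It stood at 17.2 and 20.4 TPM with LPS against 62.0 and 57.4 TPM in mock cells at 6 h, with 108 and 62.2 TPM at 0 h. The LPS libraries lay below every mock and 0 h library. The log2 fold change was -1.62 ± 0.29 at 6 h (adjusted p = 0.00024) and -1.57 ± 0.29 at 9 h (adjusted p = 0.00039), both firm, with rescaled values of -1.21 and -1.15.

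Mapk3 encodes ERK1 and was the most abundant kinase of the set, with 469.6 and 643 TPM at 0 h. At 6 h the LPS libraries held 283 and 264 TPM and the mock libraries 518 and 778 TPM, so the groups did not overlap. The fall was -1.21 ± 0.25 on the log2 scale (adjusted p = 0.00088) and -0.79 on rescaling, and it was firm at 6 h alone. Mapk9, which encodes the kinase JNK2, was called at no time on the deposited scale, with its largest difference of 0.61 ± 0.30 at 6 h (adjusted p = 0.11). That difference passed on rescaling (1.02, adjusted p = 0.0092) and with the block (adjusted p = 0.034).

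Downstream of p38, Mapkapk2 passed the F test (adjusted p = 0.0063). It stood at 933 and 585 TPM with LPS at 2 h against 244 and 179.5 TPM with mock, and at 262 and 162 TPM at 0 h. Both LPS libraries of 2 h were above every mock and 0 h library. The log2 fold change of 1.82 ± 0.47 (adjusted p = 0.015) did not pass without LPS replicate 1 of 2 h (1.48, adjusted p = 0.14) or mock replicate 2 (1.60, adjusted p = 0.12). On rescaling the 4 h and 6 h values passed as well, with 1.67 and 1.53. With the replicate block Mapkapk2 was higher at all 6 times (adjusted p = 1.6e-05 at 4 h and 3.6e-05 at 6 h). Mapkapk3, its close relative, had -0.99 ± 0.48 at 4 h (adjusted p = 0.11, and 0.0066 with the block). Map4k2, an upstream kinase and the least abundant of the 11, had -1.01 ± 0.40 at 4 h (adjusted p = 0.054, and 0.025 with the block). On median-ratio rescaling these 4 h values of Mapkapk3 and Map4k2 were -0.54 and -0.59 and did not pass (adjusted p = 0.45 and 0.3).

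**Figure D2:**
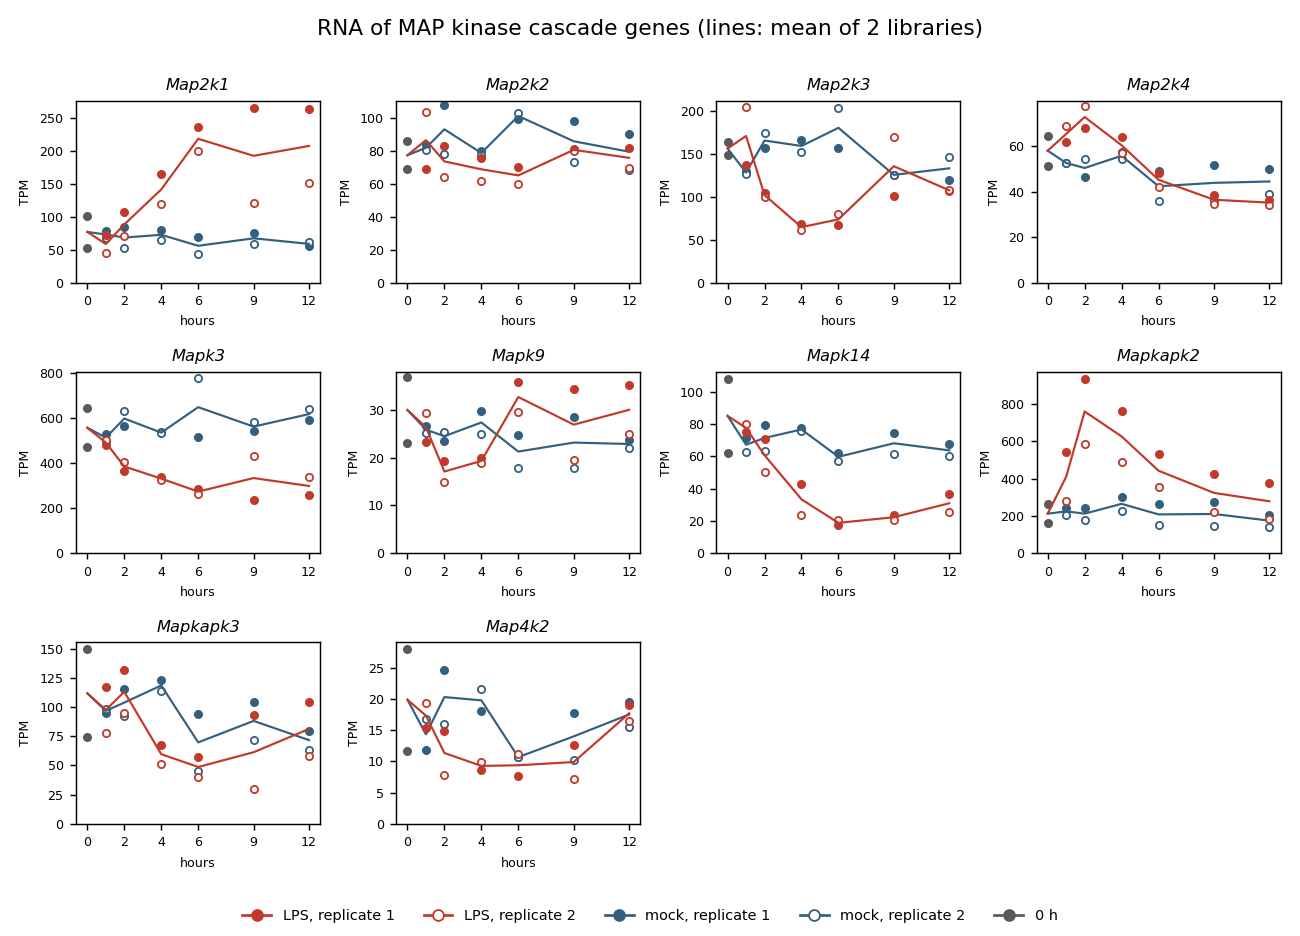
RNA levels in TPM of kinase genes against time in hours, with each library as a point (filled, replicate 1, open, replicate 2, red, LPS, blue, mock, grey, 0 h) and lines through the group means. Map2k1 separates upwards from 4 h, Mapkapk2 is highest with LPS at 2 h (933 and 585 TPM), and Mapk14 and Mapk3 lie below the mock libraries at 6 h.

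Within PP2A, a phosphatase assembled from a scaffold, a catalytic and a regulatory subunit, the regulatory subunits diverged. Ppp2r5a had the largest rise of any phosphatase. It held 350.4 and 383 TPM with LPS at 6 h against 90.2 and 137 TPM in mock cells, and 114 and 124 TPM at 0 h. Every LPS library from 2 h on lay above every mock library of its time. The log2 fold change was 1.71 ± 0.20 (adjusted p = 3.6e-06) at 6 h and 1.32, 1.21 and 0.77 at 4, 9 and 12 h, all firm.

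Ppp2r5d, a regulatory subunit of the same B56 family, moved the other way. At 6 h it stood at 14.7 and 12.1 TPM with LPS against 41.9 and 41.6 TPM with mock. The LPS libraries were the 2 lowest of all 26. The fall of -1.58 ± 0.21 (adjusted p = 2.1e-05) was firm, as were those of -1.34 at 9 h and of -1.0 at 12 h. The rescaled values at 6, 9 and 12 h were -1.17, -0.93 and -0.65. The log2 ratio of Ppp2r5a to Ppp2r5d was 4.49 and 4.87 with LPS at 6 h against 1.09 and 1.69 with mock, a difference of 3.29.

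Ppp2r4, which encodes an activator of PP2A, was lower with LPS. Its LPS libraries of 6 h held 52.8 and 69.9 TPM and its mock libraries 146 and 275 TPM. The groups did not overlap, and the fall of -1.71 ± 0.33 (adjusted p = 0.00061, -1.29 on rescaling) was firm at 6 h. The catalytic subunits Ppp2ca and Ppp2cb, the scaffold subunits Ppp2r1a and Ppp2r1b and the regulatory subunit Ppp2r5e were called at no time on the deposited scale, with largest differences between -0.57 and 0.84. On rescaling Ppp2ca passed as higher at 2, 6, 9 and 12 h, with 0.95 (adjusted p = 0.006) at 6 h, and Ppp2cb at 6 h. With the block Ppp2ca was higher at 2, 6 and 12 h (adjusted p = 0.011 at 6 h), and Ppp2cb was lower at 12 h (-0.36, adjusted p = 0.039). That 12 h difference of Ppp2cb was 0.01 on rescaling without the block.

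Among the PP1 catalytic subunits, Ppp1cc fell and Ppp1cb did not. Ppp1cc stood at 77.1 and 54.8 TPM with LPS at 6 h against 208 and 227 TPM with mock, and at 231 and 199 TPM at 0 h. From 4 h on every LPS library lay below every mock library. The fall of -1.73 ± 0.24 at 6 h (adjusted p = 2.8e-05) was firm, as were those of -1.65, -1.34 and -1.37 at 4, 9 and 12 h. The rescaled values at 4, 6, 9 and 12 h were -1.2, -1.31, -0.91 and -1.0.

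Ppp1cb held 200.4 and 155 TPM with LPS at 6 h against 76.4 and 45.0 TPM with mock. The LPS libraries were the higher ones, with a log2 fold change of 1.57 ± 0.42 (adjusted p = 0.0068). This call did not pass without LPS replicate 1 of 6 h (1.39, adjusted p = 0.06) or mock replicate 2 (1.19, adjusted p = 0.085). On rescaling the 9 h and 12 h values of 1.26 and 1.25 passed too, and with the replicate block Ppp1cb was higher at all times from 2 to 12 h. Within a library, the log2 ratio of Ppp1cb to Ppp1cc was 1.37 and 1.48 with LPS at 6 h and -1.43 and -2.31 with mock, so the more abundant of the pair was Ppp1cb in LPS cells and Ppp1cc in mock cells. Ppp1ca, the most abundant of the 3 at 0 h with a mean of 406 TPM, was called at no time without the block. Its largest difference was -0.78 ± 0.54 at 9 h, with overlapping groups (adjusted p = 0.27, and 0.0073 with the block). On median-ratio rescaling that difference was -0.35 (adjusted p = 0.69). Reads shared between such closely related genes could have been split by the authors' counting, and the effect of this on the values of these subunits was not tested.

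**Figure D3:**
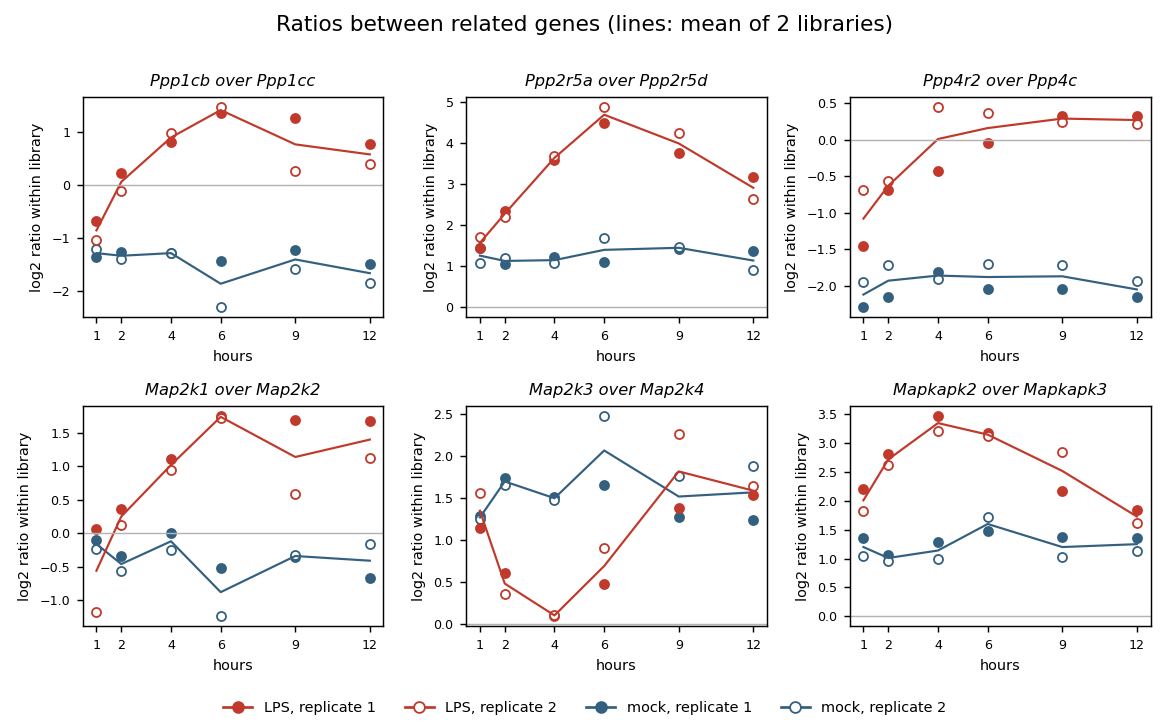
Log2 ratio of TPM between related genes within each library, against time in hours (red, LPS, blue, mock, filled, replicate 1, open, replicate 2, lines through the means, grey line at equal levels). At 6 h the Ppp1cb to Ppp1cc ratio is 1.37 and 1.48 with LPS and -1.43 and -2.31 with mock, and the Map2k3 to Map2k4 ratio is 0.47 and 0.91 with LPS and 1.66 and 2.48 with mock.

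Of the 7 PP1 regulatory genes, 4 passed the F test (57.2% of all genes did). On the deposited scale without the block 0 rose at any time, where 16.0% of all genes rose at 1 or more times. Both counts are near the background. In contrast, on rescaling Ppp1r11 was higher at 6, 9 and 12 h and Ppp1r2 at 6 h. With the block Ppp1r11 was higher at 1 and 12 h, Ppp1r2 at 2 and 6 h and Ppp1r12a at 1 h. Ppp1r12c encodes a subunit that directs PP1 to myosin. It stood at 28.8 and 24.0 TPM with LPS at 4 h against 75.2 and 86.3 TPM with mock. The groups were well apart, and the fall of -1.58 ± 0.21 (adjusted p = 1.9e-05, -1.14 on rescaling) was firm, as was that of -0.90 at 2 h (-0.76 on rescaling). At 12 h the difference was -0.30 and did not pass.

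Ppp1r14b, which encodes an inhibitor of PP1, was among the most abundant phosphatase genes. At 9 h the LPS libraries held 209.5 and 273 TPM and the mock libraries 658 and 569.8 TPM. No LPS library of that time reached the mock level, and the falls of -1.18, -1.35 and -1.30 at 6, 9 and 12 h were firm, with rescaled values of -0.76, -0.92 and -0.94. Ppp1r7 and Ppp1r9b, both PP1-binding regulators, passed the F test on the deposited scale, but Ppp1r7 did not with quantile scaling (adjusted p = 0.11) nor Ppp1r9b with median-ratio scaling (adjusted p = 0.059). None of their calls at a single time was firm. Ppp1r12a was called at no time without the replicate block, and with it passed at 1 h (1.28, adjusted p = 0.048). Its 0 h libraries differed widely, with 66.8 and 247 TPM.

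Ppp4r2, a regulatory subunit of PP4, was the only member higher at all 6 times. It stood at 166 and 185 TPM with LPS at 6 h against 49.6 and 62.8 TPM with mock, and at 55.6 and 64.5 TPM at 0 h. Every LPS library lay above every mock library, from 1 h on. The log2 fold changes of 1.18, 1.5, 1.64, 1.59 and 1.64 from 2 to 12 h were firm, with SE of 0.21 and adjusted p = 1.4e-05 at 6 h. The 1 h value of 0.80 (adjusted p = 0.045) did not pass without LPS replicate 2 of 1 h (0.52, adjusted p = 0.51) or either mock library (0.72, adjusted p = 0.31 without replicate 1, and 0.89, adjusted p = 0.13 without replicate 2).

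Its catalytic partner Ppp4c did not rise with it. Ppp4c had -0.67 at 12 h (adjusted p = 0.0063), which became -0.30 (adjusted p = 0.23) on rescaling, where its F test did not pass either (adjusted p = 0.65). The log2 ratio of Ppp4r2 to Ppp4c was -0.04 and 0.36 with LPS at 6 h against -2.05 and -1.70 with mock. In PP6, the regulatory subunit Ppp6r1 held 101 and 125 TPM with LPS at 6 h against 61.3 and 61.6 TPM with mock. That rise of 0.86 ± 0.19 (adjusted p = 0.0014) was firm, and the catalytic subunit Ppp6c was called at no time. The regulatory subunit Ppp6r3 had -0.62 at 4 h (adjusted p = 0.011), which became -0.17 (adjusted p = 0.52) on rescaling, where its F test did not pass (adjusted p = 0.073). Ppp4r1, another PP4 regulatory subunit, was called at no time (largest difference -0.27 ± 0.31 at 4 h).

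Ptpn7 and Dusp3 encode phosphatases that act on MAP kinases, and RNA of both fell. Ptpn7 binds ERK and p38 and removes their activating phosphotyrosine. It had the largest fall of the 51 genes, with 34.2 and 43.3 TPM with LPS at 6 h against 191 and 245 TPM with mock, and 174 and 228 TPM at 0 h. The LPS libraries lay below every mock and 0 h library. The log2 fold change was -2.46 ± 0.44 at 6 h (adjusted p = 0.00029, -2.04 on rescaling), and the falls of -1.98, -2.06 and -2.19 at 4, 9 and 12 h were firm too, with rescaled values of -1.53, -1.63 and -1.83. At 1 h the LPS libraries held 125 and 258 TPM, on either side of the mock libraries (160.1 and 173 TPM).

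Dusp3, a dual-specificity phosphatase that acts on ERK and JNK, was the only Dusp gene in the RNA table used here. At 6 h it stood at 23.9 and 31.4 TPM with LPS against 102 and 170.3 TPM with mock. The 2 LPS libraries were separate from the mock libraries. The fall of -2.22 ± 0.42 (adjusted p = 0.00044, -1.81 on rescaling) was firm at 6 h. At 4 and 9 h the log2 differences were -1.36 and -1.33, and -0.91 at both times on rescaling, where neither passed (adjusted p = 0.15 and 0.14).

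Ptpn23 encodes a phosphatase-related protein of endosomal receptor sorting, and its largest rises were early. It held 65.8 and 71.5 TPM with LPS at 1 h against 23.2 and 22.3 TPM with mock, and 68.3 and 74.8 TPM at 2 h against 26.9 and 25.0 TPM. The 4 LPS libraries of these times were the highest of all 26. The log2 fold changes were 1.55 ± 0.17 (adjusted p = 2.2e-05) and 1.43 ± 0.17 (adjusted p = 1.7e-05), both firm, and at 4 h the difference was -0.06. From 6 to 12 h it was between 0.27 and 0.36 and did not pass, whereas on rescaling it was between 0.69 and 0.78 and passed.

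Ptpn1 is anchored at the endoplasmic reticulum and acts on receptor and Janus kinases. At 12 h it stood at 536 and 572 TPM with LPS against 273 and 281 TPM with mock. Both LPS libraries were well above, and the rise of 1.00 ± 0.17 (adjusted p = 0.00023) was firm. At 4 h the order was the opposite, with 205 and 171 TPM with LPS against 327 and 309 TPM with mock. That difference of -0.76 (adjusted p = 0.0021) became -0.31 (adjusted p = 0.24) on rescaling. Ptpn12, a regulator of the actin cytoskeleton, had 0.62 at 1 h (adjusted p = 0.06) and fell later, to 82.6 and 81.5 TPM with LPS at 9 h against 170.4 and 176 TPM with mock. The groups were far apart at 9 h, and the fall of -1.07 ± 0.18 (adjusted p = 0.00018, -0.64 on rescaling) was firm.

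Ptpre, a receptor-type phosphatase, stood at 373 and 567 TPM with LPS at 1 h against 187 and 193 TPM with mock. The LPS libraries were higher, but the log2 fold change of 1.27 ± 0.34 (adjusted p = 0.041) did not pass without LPS replicate 2 (0.97, adjusted p = 0.41), mock replicate 1 (1.25, adjusted p = 0.23) or mock replicate 2 (1.30, adjusted p = 0.17). Its F test did not pass without these libraries (adjusted p = 0.076, 0.061 and 0.055) or on median-ratio rescaling (adjusted p = 0.069). Ptprc, which encodes CD45 and is also a marker of the cells, had 431 and 421 TPM with LPS at 2 h against 231 and 291 TPM. That difference of 0.71 (adjusted p = 0.009) did not pass without LPS replicate 1 (0.70) or mock replicate 1 (0.55). Ptprc passed the F test (adjusted p = 0.0046). Its 6 h call (0.56) did not pass with quantile scaling (0.48, adjusted p = 0.057), without LPS replicate 2 (0.53) or without mock replicate 1 (0.51). On median-ratio rescaling Ptprc was higher at 2, 4, 6 and 9 h, with 0.86, 0.8, 0.99 and 0.55.

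The Janus kinase phosphatase Ptpn2 and the cytosolic phosphatase Ptpn18 passed the F test, Ptpn18 not with quantile scaling (adjusted p = 0.066), and none of their calls at a single time was firm. Ptpn11, a phosphatase that promotes ERK signalling, was called at no time on the deposited scale without the block. Its largest difference was 0.44 at 12 h (adjusted p = 0.066, and 0.04 with the block). It passed on rescaling at 4, 6, 9 and 12 h, with 0.80 (adjusted p = 0.0023) at 12 h. The nuclear phosphatase Ppm1g passed the F test on the deposited scale with no firm call, and did not pass it with either other scaling (adjusted p = 0.12 in each). On the deposited scale without the block Ppm1a and Ppm1h were called at no time. With the block Ppm1a was higher (0.74, adjusted p = 0.024) and Ppm1h lower (-0.66, adjusted p = 0.014) at 2 h. On rescaling without the block these values were 0.88 and -0.52 and did not pass. Both calcineurin genes, Ppp3ca and Ppp3r1, and Ptp4a2 were called at no time as well, again without the block. Their largest differences were -0.90 ± 0.59, -0.90 ± 0.36 and -0.82 ± 0.56. With the replicate block these differences passed (adjusted p = 0.0036, 0.0011 and 0.0096). On median-ratio rescaling they were -0.48, -0.45 and -0.4 and did not pass (adjusted p = 0.62, 0.39 and 0.67).

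**Figure D4:**
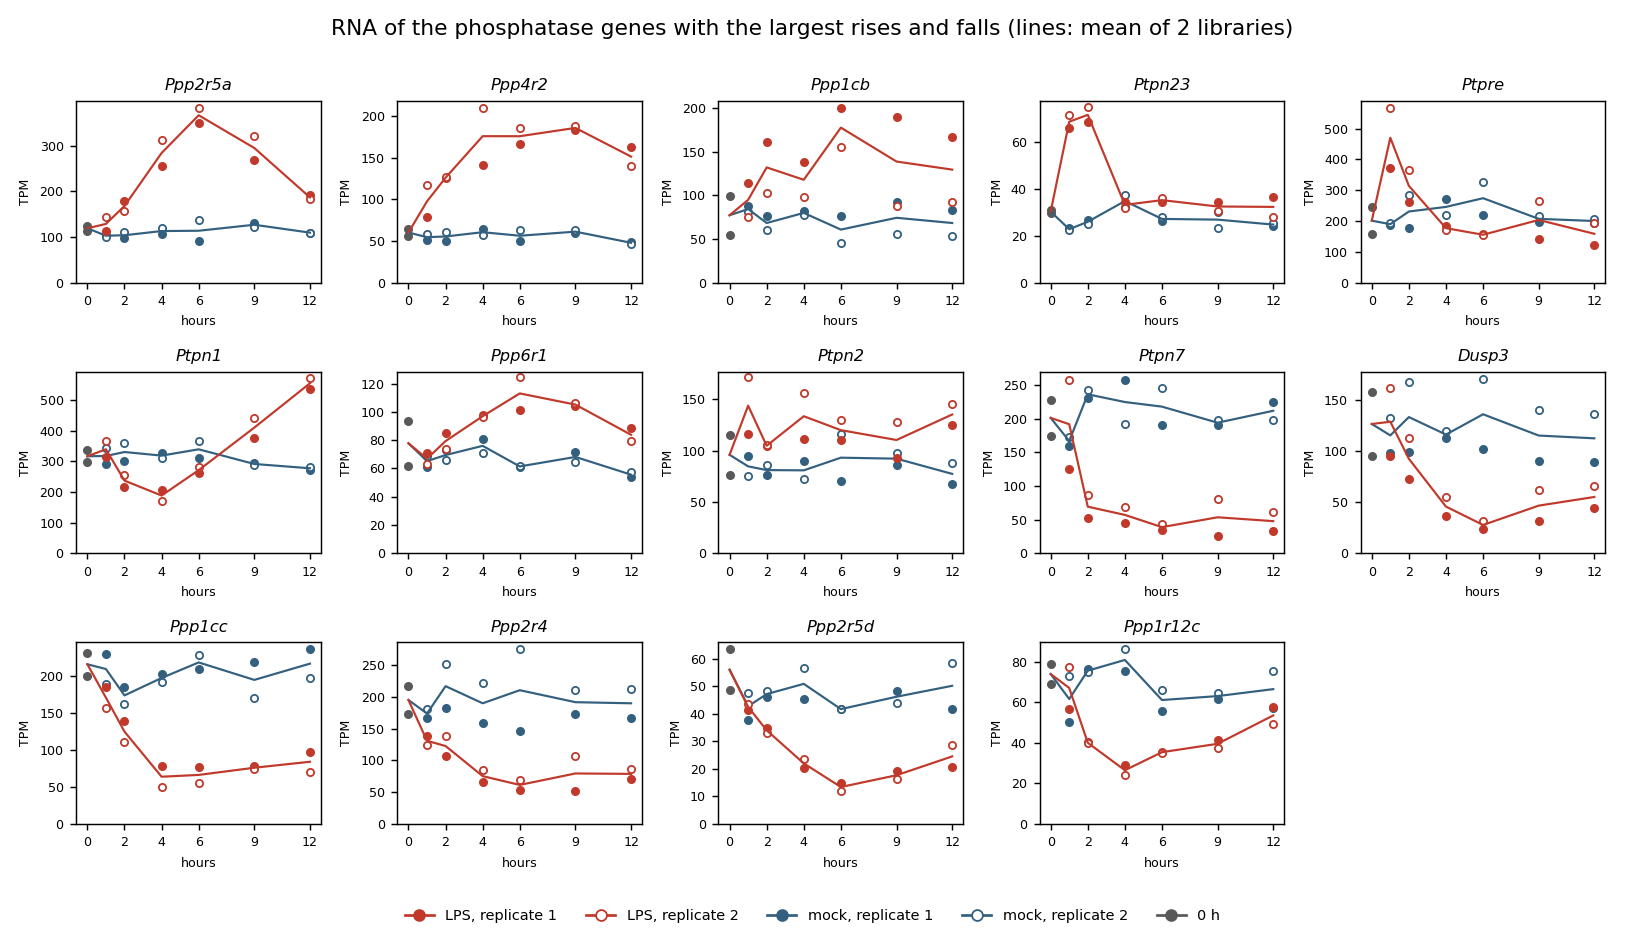
RNA levels in TPM of 14 phosphatase genes, the 8 with the largest rises and the 6 with the largest falls by the naming rule, against time in hours (symbols as for the kinases). Ppp2r5a and Ppp4r2 rise above the mock libraries and stay there, Ptpn23 is highest with LPS at 1 and 2 h, and Ptpn7, Dusp3 and Ppp1cc lie below the mock libraries from 4 h on.

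Early and late responses were compared directly, as the mean LPS minus mock at 6, 9 and 12 h less that at 1 and 2 h. Among phosphatases 4 were higher late and 9 were lower late, against 8.17% and 22.2% of all genes, and among kinases 1 and 3. The higher ones were Map2k1 (1.70 ± 0.37, adjusted p = 0.0027), Ppp2r5a, Ppp4r2, Ptpn1 and Ppp6r1. The lower ones held genes with larger early rises, as in Ptpn23 (-1.16 ± 0.16, adjusted p = 4.4e-05), and late falls, as in Mapk14 (-1.39 ± 0.26, adjusted p = 0.00073) and Ppp2r5d (-1.08 ± 0.20, adjusted p = 0.00057). Ptpn12 combined a positive early with a negative late difference, and its change between them was -1.37 ± 0.16 (adjusted p = 1.2e-05). On rescaling, these falls of Ptpn23, Mapk14, Ppp2r5d and Ptpn12 were -0.84, -1.08, -0.77 and -1.05 and passed. By contrast, the late minus early falls of Ptpn7, Dusp3, Ppp1r14b, Ppp2r4, Mapk3 and Map2k4 did not pass, with values between -1.07 and -0.25.

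The mock arm was compared with 0 h, since its medium was exchanged too. No gene of 3147 passed limma's test for mock at 1 h or for the mean of mock at 6, 9 and 12 h (0.0% called in each), with 25 and 89 genes at an unadjusted p under 0.05. Among the 51 members, 1 was at an unadjusted p under 0.05 in each comparison, Ptpn23 at 1 h and Map2k4 late. Member differences ranged from -0.49 to 0.18 at 1 h and from -0.50 to 0.19 late.

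In resting cells RNA levels of the phosphatases spanned 23.9 TPM (Ppp2r1b) to 770.4 TPM (Ptp4a2), and those of the kinases 19.9 TPM (Map4k2) to 556 TPM (Mapk3). Ribosome footprints, the mRNA fragments covered by ribosomes, were given for 50 of the 51 members, all but Map4k2. They were compared with 0 h RNA over the 2896 genes in both tables, with the median gene of every library set to the same level. Of the 50 members, 4 were higher and 10 lower in footprints than in RNA, against 14.1% and 13.6% of the shared genes. Without centring the counts were 0 and 31 (2.07% and 45.9%). Leaving out 0 h replicate 1 gave 13 and 21 (42.6% and 33.5%), and 0 h replicate 2 gave 10 and 26 (32.4% and 27.3%). Without footprint replicate 1 they were 0 and 4 (2.66% and 5.66%), and without replicate 2 they were 0 and 5 (2.76% and 5.59%).

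The 4 members that passed without each of the 4 libraries were all lower in footprints, as were 4.73% of the shared genes by the same rule. Ptp4a2, a membrane-anchored tyrosine phosphatase, held 494 and 1046 TPM of RNA and 34.1 and 38.6 TPM of footprints. It ranked first among phosphatases by RNA and 22 by footprints, with a log2 difference of -3.42 ± 0.41 (adjusted p = 0.007). Ppp1r14b had -2.76 ± 0.27, Ppp1r12c -2.11 ± 0.25 and Ppp1r9b -2.09 ± 0.25. All 3 regulate or direct PP1, but of the 7 PP1 regulatory genes 3 were lower and 1 was higher in the fit to all libraries. The higher one was Ppp1r7 (0.94), which did not pass without footprint replicate 1 or replicate 2.

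Mapk3 held 469.6 and 643 TPM of RNA and 120 and 111 TPM of footprints. Without centring 45.9% of the shared genes were called lower in footprints. On that scale both footprint libraries of Mapk3 lay below both of its RNA libraries. Its difference after centring of -1.39 ± 0.28 (adjusted p = 0.022) did not pass without footprint replicate 1 (-1.47, adjusted p = 0.13) or replicate 2 (-1.31, adjusted p = 0.19). Ppp1ca had the highest footprint level of the phosphatases, with 322 and 334 TPM.

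**Figure D5:**
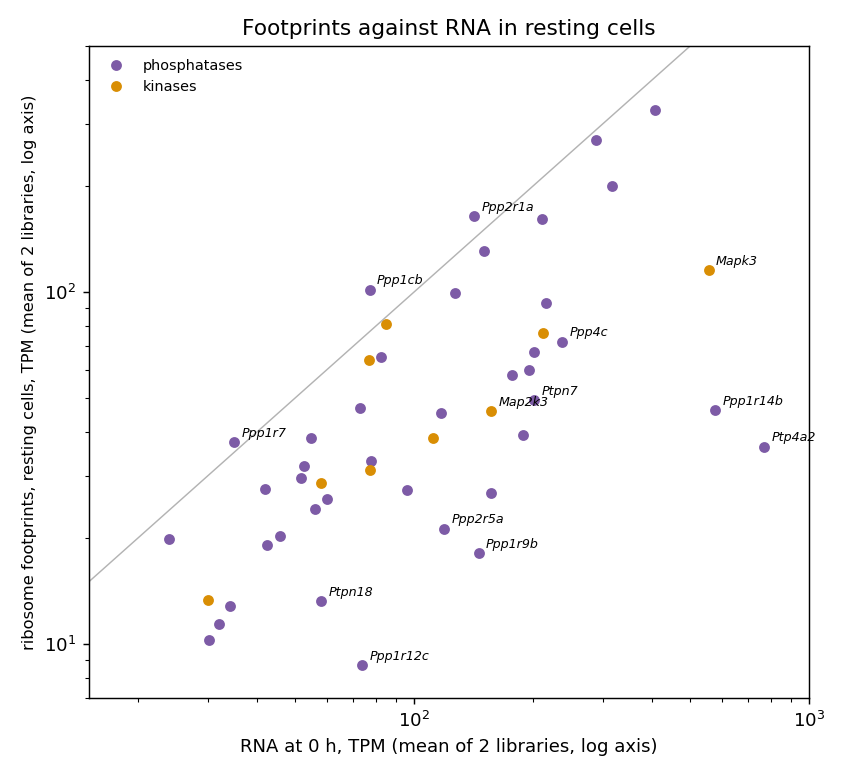
Ribosome footprints of resting cells against RNA at 0 h for members in both tables, in TPM as means of 2 libraries on log axes, with a line at equal TPM and names for genes past the threshold. Ptp4a2 and Ppp1r14b lie farthest below the line among the abundant genes, and Ppp2r1a and Ppp1cb lie above it. The TPM total covers 3147 genes for RNA and 6250 for footprints, and the line is not the centred level used in the tests. Map2k1, Ppp1ca and Mapk14 lie below the line, yet their centred log2 differences were 0.66, 0.69 and 0.83 and did not pass. A place below the line is therefore not by itself a lower footprint level after centring.

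A further 33 genes of these families appeared in the footprint table alone, 22 by the phosphatase names and 11 by the kinase names, of which 1 encodes a kinase-binding protein and no kinase. Nothing was measured of the response of these genes to LPS here. The highest was Ptpn6, an inhibitory tyrosine phosphatase of blood cells, at 148 and 144 TPM. The MAP kinase phosphatases Dusp6, Dusp5 and Dusp1 stood at 42.0, 12.8 and 12.6 TPM on average. The MAP3K genes, which start the cascade, were low, from 3.23 TPM (Map3k4) to 14.9 TPM (Map3k1).

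Other genes of the pathway were read from lists written by hand. Of 77 named partners of the MAP kinase pathway (receptor adaptors, scaffolds, transcription factors), 17 were measured and 9 passed the F test (57.2% of all genes did), with a median log2 difference of -0.14 at 6 h against -0.44 for all genes. At 6 h 3 rose and 4 fell, against 11.2% and 30.0% of all genes. The F count and the falls were near these shares. Junb, a subunit of the transcription factor AP-1, rose by 2.25 ± 0.22 on the log2 scale at 1 h. Nfkb1, whose precursor protein holds a MAP3K inactive, rose by 1.99 ± 0.26 at 2 h, and Irak3, an inhibitor of Tlr signalling, by 1.12 ± 0.27 at 6 h. Pea15a, which keeps ERK in the cytoplasm, had -1.26 ± 0.16 at 12 h and -0.90 on rescaling. Each of these passed without each compared library and under both other scalings.

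Of 56 other phosphatases and phosphatase partners, 22 were measured and 11 passed the F test (57.2% of all genes did). At 6 h 1 rose and 7 fell, against 11.2% and 30.0% of all genes, with a median of -0.34. The F count and the falls were near the background. The largest fall was that of Inpp5d, a lipid phosphatase that removes a phosphate from a product of PI3 kinase, with -3.18 ± 0.16 at 4 h (adjusted p = 3.8e-10) and -2.75 on rescaling. Anp32e, of a family that inhibits PP2A, had -1.69 ± 0.16 at 9 h and -1.27 on rescaling. Both passed under the same conditions.

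The genes outside the families whose LPS minus mock profile over the 6 times was most like that of Ppp2r5a were Tfg, Max and Bag1, with Pearson r of 0.98, 0.977 and 0.977. Tfg and Max reached 1.39 and 1.73 at 6 h, whereas Bag1 stayed between -0.14 and 0.07, so only the shape was alike. For Map2k1 they were Ankhzn;Ankfy1, Txn1 and C3, with r of 0.998, 0.995 and 0.992. These are descriptions over 6 times, and all genes share the same libraries.

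Sequences before the start are shown for 4 genes with clear changes in opposite directions. RefSeq promoter windows on build GRCm38.p6 were found for 42 of the 51 members (51 windows, some genes having more than 1), and the 250 bases before the start were searched on both strands. The GC box GGGCGG, a common motif of housekeeping promoters, was in 60.8% of member windows and in 32.7% of all 32851 windows. All windows include those of genes absent from the RNA table, for this and the other motifs. Whether members differ from the measured genes in these motifs was not tested. The windows below, each of the first listed start, written on the strand of the gene with the GC box of either strand in capitals, belong to 2 genes that rose and 2 that fell. They are Ppp2r5a at chr1:191397042-191397291 (minus strand), Map2k1 at chr9:64253606-64253855 (minus strand), Ptpn7 at chr1:135132450-135132699 (plus strand) and Mapk14 at chr17:28691092-28691341 (plus strand).
Ppp2r5a: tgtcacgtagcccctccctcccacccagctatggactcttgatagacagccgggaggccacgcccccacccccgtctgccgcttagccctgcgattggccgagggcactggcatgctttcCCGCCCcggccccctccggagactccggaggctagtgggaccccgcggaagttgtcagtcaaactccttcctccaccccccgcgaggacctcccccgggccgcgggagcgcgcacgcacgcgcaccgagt
Map2k1: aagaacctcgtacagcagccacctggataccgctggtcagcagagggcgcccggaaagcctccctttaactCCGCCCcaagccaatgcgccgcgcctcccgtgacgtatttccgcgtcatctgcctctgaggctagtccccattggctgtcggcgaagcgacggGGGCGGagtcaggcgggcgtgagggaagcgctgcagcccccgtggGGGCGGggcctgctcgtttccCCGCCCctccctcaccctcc
Ptpn7: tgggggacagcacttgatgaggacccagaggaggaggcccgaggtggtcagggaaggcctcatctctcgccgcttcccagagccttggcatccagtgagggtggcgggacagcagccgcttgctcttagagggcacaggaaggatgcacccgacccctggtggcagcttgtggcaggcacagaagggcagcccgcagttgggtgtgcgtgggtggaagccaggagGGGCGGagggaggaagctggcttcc
Mapk14: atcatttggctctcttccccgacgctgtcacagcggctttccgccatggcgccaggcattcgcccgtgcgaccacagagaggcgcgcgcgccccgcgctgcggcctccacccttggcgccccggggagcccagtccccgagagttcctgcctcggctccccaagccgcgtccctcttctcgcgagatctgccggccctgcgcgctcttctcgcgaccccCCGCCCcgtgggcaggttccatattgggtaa
These 4 windows hold the GC box, Map2k1 with 4 matches and the others with 1. The window of the second listed start of Mapk14 (chr17:28692318-28692567) holds none, and that of Ptpn7 holds 1, so the box is not in every window of these genes. A match describes letters and no measure of binding.

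Motifs of LPS-activated factors were rarer than the GC box, in member windows and in all windows alike. The kB motif was in 1.96% of member windows and 1.41% of all windows, and the only member with a match was Ptpn7, in the window of its second listed start. The ISRE motif was in 5.88% of member windows and 2.98% of all, in Mapk14 (second listed start), Mapkapk3 and Ppp2r4. The AP-1 motif TGANTCA was in 1.96% of member windows and 6.75% of all, in Ptpre alone. The CRE motif TGACGTCA was in 7.84% and 1.55%, in Ppm1a, Ppp1r12c, Ppp2ca and Ptpn11. Neither Ppp2r5a nor Map2k1 had a match to these 4 motifs in this window.

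The cells carried dendritic cell markers. Of 12 listed markers of GM-CSF cultures 6 were measured, among them Itgax and Cd74, and their summed level was 8176 to 21813 TPM in LPS libraries and 9634 to 19294 TPM in mock libraries. Of 11 neutrophil markers 7 were measured, none at 0, with 1165 to 8678 TPM in LPS and 2492 to 11097 TPM in mock libraries. Of 7 macrophage markers 4 were measured, none at 0, with 387 to 1030.5 TPM against 583 to 1103 TPM. These ranges overlap between the arms, but each pools libraries of several times, so they do not compare the arms at a given time. The part of such cells in the differences above was not tested. None of the listed markers of T, B, mast or erythroid cells was in the RNA table used here.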

How the data were processed

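RNA was measured in 26 libraries (13 groups of 2) and ribosome footprints in 2. The deposited RNA values are TPM, which the authors computed from reads aligned to mouse build mm9 with Bowtie 0.12.7 and RSEM 1.2.3, per the submitters' processing notes. The deposited footprint values were read as TPM because each column sums to 1000000, and the same notes name Bowtie2 and TopHat2, without versions, for these reads. The 4 h libraries are described with an hour 5 column in 1 label field, while titles and table say 4 h. The 0 h columns occur 2 times in the table with identical values and were used once. Depth per library is unknown, so no counting error is given, and the number of libraries limits the precision.

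Genes with at least 1 TPM in 2 libraries were kept (all 3147). Limma 3.58.1 (R 4.3.3) was run on log2(TPM + 1), which understates changes of low genes. The model had a mean for every group, left 13 residual degrees of freedom and let the variance follow abundance. Adjusted p-values are Benjamini-Hochberg over all genes tested, with 0.05 as threshold, and SE after a log2 fold change is limma's moderated one. Footprints were compared with 0 h RNA in the same way over 2896 genes matched by their set of names. The fit was tested on simulated data with known changes. Ratios between related genes were taken within libraries on the log2 scale. Plots came from matplotlib 3.10.9 (Python 3.11.15).

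Members, gene lists and tests were chosen with earlier results of these data known. Genes were named by rule, separately for phosphatases and kinases. The rule takes the 8 largest rises and 6 largest falls among genes past the F test without overlap of groups, the most abundant gene of each class, all Dusp and Mapk genes, all genes past late minus early, and the 3 highest and 3 lowest footprint differences. The remaining members were named to account for the set, and 1 kinase is counted but not reported here. The alternatives tried were a pseudocount of 0.1 or 5, at least 10 TPM or no minimum, median-ratio and quantile scaling, a replicate block, fits to the 4 libraries compared and leaving out each library. Libraries of the same number deviated together at all 6 times, although the labels name no shared source. Blocked values are therefore given for a selection of the calls and counts that the block changed. A member without a blocked value may have changed too. Promoter sequences are RefSeq's on GRCm38.p6 and were matched by symbol, and no coordinates of mm9 were used.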

Additional observations from a re-analysis of the deposited data

Results flagged for a closer look

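The difference between the late response (6, 9 and 12 h) and the early response (1 and 2 h) passed limma's test for 17 members. It passed for 956 of all 3147 genes, so the count of 17 was near the background. Each member is given here with its log2 value of late minus early. This value was positive for Map2k1 (1.70), Ppp2r5a (0.73), Ppp4r2 (0.63), Ppp6r1 (0.58) and Ptpn1 (0.58). For phosphatases it was negative in Ptpn7 (-1.39), Ptpn12 (-1.37), Dusp3 (-1.33), Ptpre (-1.29), Ptpn23 (-1.16), Ppp1cc (-1.09), Ppp2r5d (-1.08), Ppp1r14b (-0.84) and Ppp2r4 (-0.83). For kinases it was negative in Mapk14 (-1.39), Mapk3 (-0.68) and Map2k4 (-0.57). Leaving out single libraries ended the call for Ppp2r4, Mapk3, Map2k4, Ppp4r2 and Ppp6r1. For Ppp4r2 these were LPS 1 h replicate 1 (0.49, adjusted p = 0.062), mock 1 h replicate 2 (0.59, adjusted p = 0.057) and mock 2 h replicate 2 (0.57, adjusted p = 0.058), and for Ppp6r1 it was LPS 2 h replicate 2 (0.53, adjusted p = 0.05). For Ppp2r4, Mapk3 and Map2k4 between 9 and 16 single libraries did so, with values no nearer to 0 than -0.65, -0.58 and -0.48. On median-ratio rescaling these genes did not pass either. Nor did Ptpn7 (-1.07, adjusted p = 0.076), Dusp3 (-1.01, adjusted p = 0.08) and Ppp1r14b (-0.52, adjusted p = 0.063).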

How the results depend on the processing

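Counts of calls are summed over the 6 times. The 23 rises of phosphatases became 46 with median-ratio rescaling, 41 with the replicate block and 10 with only the 4 libraries compared, and their 46 falls became 23, 73 and 30. The 4 rises of kinases became 11 with median-ratio rescaling, 9 with quantile normalization and 12 with the replicate block, and their 11 falls became 6 with median-ratio rescaling and 17 with the block. Shares of all genes shifted as well. At 6 h 11.2% rose and 30.0% fell on the deposited scale, 18.0% and 14.7% on median-ratio rescaling, and 14.8% and 42.9% with the block. These shifts are read as no result about the members. With the block 8 kinases passed the F test instead of 5, against 80.5% of all genes instead of 57.2%. Of late minus early calls, the 9 lower phosphatases became 5 with median-ratio rescaling, the 1 higher kinase became 2 with either rescaling or the block, and the 3 lower kinases became 1 with either rescaling. Leaving out single libraries gave 1 to 2 and 1 to 3 for the latter pair. Of all 3147 genes 257 were higher and 699 lower late on the deposited scale, and 418 and 331 with median-ratio rescaling. The 4 higher and 10 lower footprint calls became 0 and 31 without centring, and ranged over 0 to 13 and 4 to 26 without single libraries. For Ppp2r1a at 1 h the difference of -0.57 became 0.21 without LPS 1 h replicate 2, in a range of -1.34 to 0.21 over single libraries. The cause was not tested for these shifts. The replicate block ended no call of a member at a single time. Of 420 alternatives for 35 named members at their largest difference, 379 kept direction and side of the threshold, 24 lost the call, 16 gained one and 1 changed sign. TPM hold no depth, so the counting error of low genes is unknown.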

Other observations

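Across the 13 RNA groups, 5 of the 51 members were higher in replicate 2 than in replicate 1 in every group, namely Ppp1r9b, Dusp3, Ppm1h, Ptp4a2 and Ppp3ca. A further 8 were lower in replicate 2 in every group, among them Ppp1cb, Ppp1ca, Mapkapk2, Ppp2cb, Ppp2r1a, Ppp2ca and Ppm1g. The mean log2 difference of replicate 2 from replicate 1 was -0.58 for Ppp1cb.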
